A study of Mus musculus with 16 samples.

Results

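Histone genes were represented by 48 of the 24109 gene oligos on these mouse arrays, 34 for replication-dependent histones and 14 for histone variants. A probe was taken as replication-dependent where its name in the scanner files, or its symbol in the platform annotation, starts with Hist1h, Hist2h, Hist3h or Hist4h. It was taken as a variant where that name starts with H1f, H2af or H3f. No measured value entered the choice. The replication-dependent probes comprised 6 for the linker histone H1 and 7 each for the core histones H2A, H2B, H3 and H4. The variant probes comprised 4 for H1, 7 for H2A and 3 for H3. The study hybridised 16 single-colour Cy5 arrays to test cDNA synthesis from single-cell amounts of RNA in a microfluidic rotary mixer. The 3 control arrays carried 15 µg of total RNA from adult female B6.C3Sn wild-type forebrain, reverse-transcribed with random hexamers and labelled with Cy5-dUTP without amplification. The 3 microfluidic arrays carried 10 pg of such RNA, reverse-transcribed for 20 min in a 7 nL mixer and amplified by 40 cycles of template-switching PCR. The 3 conventional arrays carried the same input and amplification after reverse transcription in a 10 µL tube. The 4 single-cell arrays each carried 1 cell dissociated from the caudal ganglionic eminence (CGE) of OF1 embryos at E14, with lysis and reverse transcription (25 min) in the mixer and 40 cycles. The 3 explant arrays carried 5 µg of unamplified OF1 E14 RNA, primed with random hexamers and coupled to the dye afterwards, and the labels give its tissue as CGE in one place and as telencephalon in another. Nothing in the labels ties arrays of a group to separate animals, so each p-value measures the spread between arrays, which may be technical.

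Replication-dependent histone genes supply the core and linker histones that package newly made DNA, and their mRNAs accumulate in S phase. In animals these mRNAs end in a conserved stem-loop that is bound by the protein SLBP, and not in a poly(A) tail. Variant histones are made through the cell cycle, mostly from ordinary polyadenylated mRNAs. H2afx is known for giving both forms of mRNA, and several replication-dependent genes are also known to give polyadenylated mRNAs in cells that have stopped dividing. Some members are germline genes, namely Hist1h1t, Hist1h2aa and Hist1h2ba of the testis, H1fnt of spermatids and H1foo of the oocyte.

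The 2 kinds of priming differ in what they need from the RNA. Random hexamers can start anywhere on a transcript, whereas the primer used for the microfluidic, conventional and single-cell arrays anneals through a run of T to a stretch of A. The primers given in the labels are shown because they define that difference, with capitals marking the run of 30 T and, in the second, the 3 G that pair with the cDNA end at the template switch. The first primer continues with 1 base other than T and 1 of any kind.
3' CDS primer: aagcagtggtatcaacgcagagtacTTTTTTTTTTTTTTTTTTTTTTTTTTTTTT
Smart A primer: aagcagtggtatcaacgcagagtacgcGGG

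The sequences and positions of the array's own oligos were not used here, so it is not known which end of a transcript a probe reads. Of the 48 probes 35 carried 1 name in both the files and the platform table, 11 carried different names and 2 were named in the files alone. Of these 11, 8 lay in H2B, H3 and H4, where gene copies have nearly the same coding sequence, so a signal cannot be assigned to 1 copy. Probes are called below by the name in the files, except H1fnt, which the files name 1700026P10Rik, with the oligo number where a name occurs on several probes. The 3 Hist1h3b probes share 1 RefSeq accession (current symbol H3c8), the Hist1h4j probes 187798 and 194259 share another (H4c9), and Hist1h2be 188074 and Hist3h2ba 188078 share one more (H2bc15).

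Intensities are background-corrected Cy5 medians per spot in scanner units, and a spot counted as detected where its foreground exceeded its local background by more than 2 of that background's standard deviations. Detection covered 63.9 to 68.8% of all probes on the control arrays, 34.3 to 50.0% on the microfluidic, 3.21 to 5.72% on the conventional, 25.3 to 48.3% on the single-cell and 13.3 to 27.7% on the explant arrays. The scanner's ceiling lies at 65535 before background subtraction. Among the 13 arrays whose files have a header each scanning session held arrays of 1 group, and the explant slides came from another print series, so scanning and group cannot be told apart. The sessions of the conventional arrays are not known. Among the 48 histone probes 44 were detected on at least 1 array. The other 4 were Hist1h1c, Hist1h2ba, Hist1h4h 223914 and Hist2h2be, the last of which was marked bad on all 3 control arrays. On the control arrays 23 to 26 of the 34 replication-dependent and 10 to 12 of the 14 variant probes were detected. The microfluidic arrays detected 18 to 25 and 6 to 10, the conventional arrays 1 to 4 and 0 to 1, the single cells 11 to 20 and 3 to 9, and the explant arrays 18 to 22 and 10 to 11.

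By the median of its probes, each class stood highest relative to the other probes of the same array in the embryonic explant. There the median intensity was 11430 ± 4256 for the replication-dependent and 12111 ± 5358 for the variant probes (mean ± SD, n = 3), while all probes had 766 ± 531. The replication-dependent median exceeded 95.5 ± 0.817% of all probes of the same array, against 68.3 ± 5.63% on the control, 69.0 ± 4.42% on the microfluidic, 61.7 ± 4.72% in the single cells (n = 4) and 50.5 ± 18.3% on the conventional arrays. For the variants the shares were 95.7 ± 1.28% in the explant, 69.4 ± 3.96% on the control, 61.5 ± 1.34% on the microfluidic, 58.9 ± 14.1% in the single cells and 50.1 ± 6.04% on the conventional arrays. The replication-dependent H2B family was not raised, with 63.4 ± 19.1% in the explant and 66.0 ± 10.2% on the control arrays. The medians of H1, H2A, H3 and H4 stood higher in the explant than on the control arrays. On the log2 scale the replication-dependent median lay -0.061 ± 0.53 from the variant median on the control arrays and 0.55 ± 0.30 from it on the microfluidic arrays, with 0.15 ± 0.71 in the single cells, -0.11 ± 0.95 on the conventional and -0.055 ± 0.21 on the explant arrays. These class differences set different probes against each other, and by array the microfluidic values of 0.21 to 0.74 lay above the explant values of -0.20 to 0.19, while the ranges of the other groups overlapped these and each other. Within the single cells, cells 1 to 3 gave 0.48 to 0.55 and cell 4 gave -0.91.

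**Figure D1:**
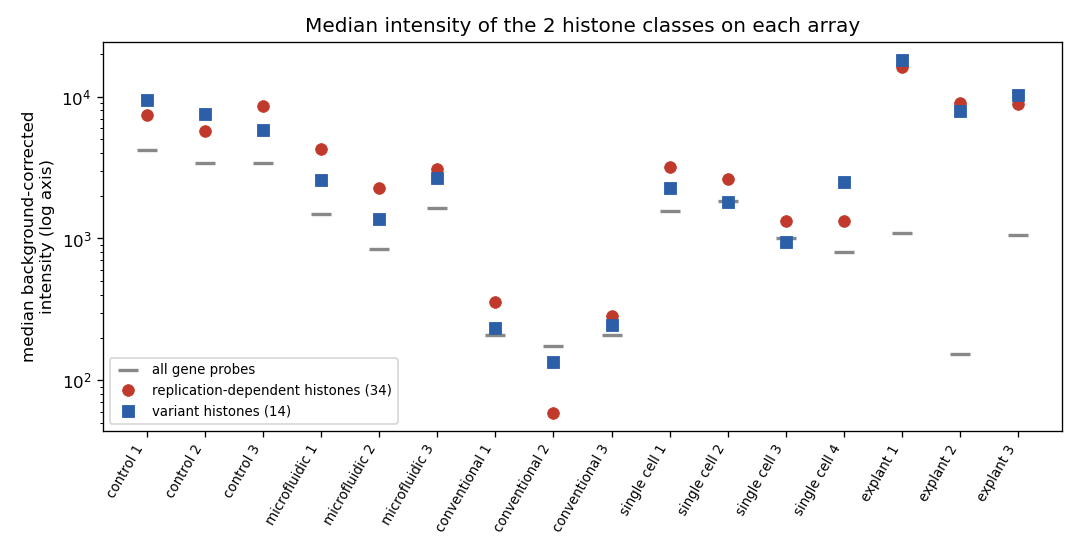
Median background-corrected intensity (log axis) of the 34 replication-dependent probes (circles), the 14 variant probes (squares) and all gene probes (dashes) on each of the 16 arrays. On the 3 explant arrays both classes lie well above the median of all probes, while on the conventional arrays all 3 medians lie between 58.8 and 358, and the order of the 2 classes varies between arrays of a group.

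**Figure D2:**
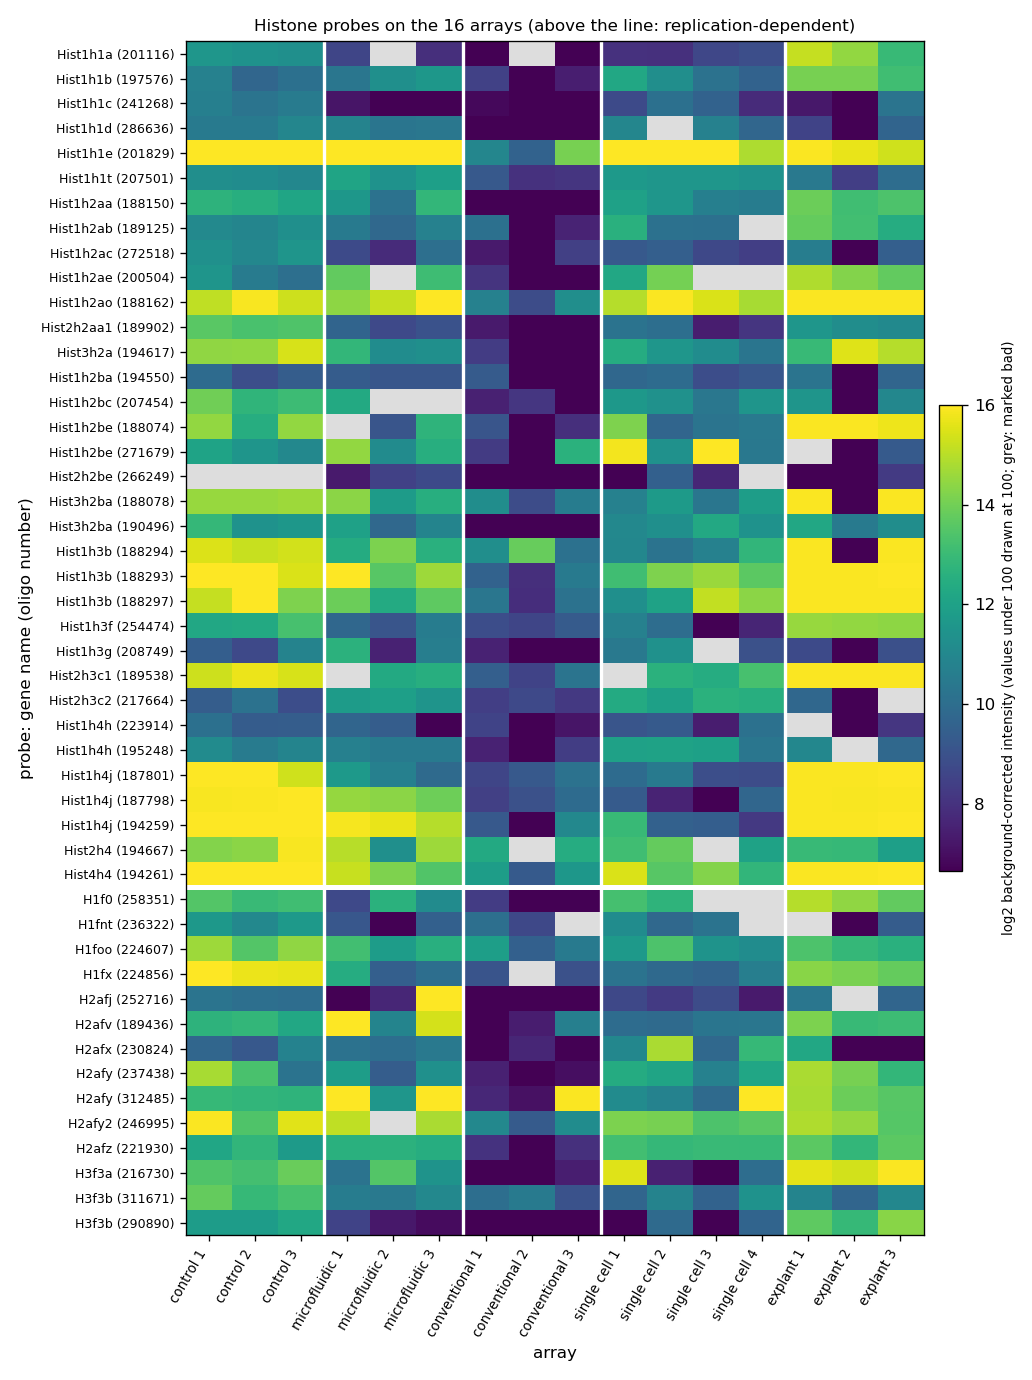
Background-corrected intensity (log2 colour scale, values under 100 drawn at 100, grey for spots marked bad) of the 48 histone probes (rows) on the 16 arrays (columns), with the replication-dependent probes above the white line. The 3 Hist1h4j probes and Hist4h4 are bright on the control and explant arrays, and Hist1h1e is bright on nearly every array but the conventional ones.

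The microfluidic arrays were set against the control arrays to ask how the mixer reaction on 10 pg represents adult forebrain RNA. Of 6 tested histone H4 probes 4 read lower after the mixer reaction, as did several H3 and H2A probes and the linker variant H1fx. A smaller number read higher, among them Hist2h3c2, the testis linker histone Hist1h1t and the variant H2afz. Each class thus moved in both directions. Of the 26 replication-dependent probes that could be tested 5 rose, 10 fell and 11 did not pass, and of the 9 tested variants 2 rose, 3 fell and 4 did not pass (limma, adjusted p under 0.05 over all 15460 tested probes). Over all tested probes 23.9% rose and 35.1% fell, so the 7 rises and 13 falls among 35 histone probes lie near the background. The median log2 difference was -0.98 for the replication-dependent and -0.64 for the variant probes, against -0.43 for all tested probes. The 2 groups of arrays did not overlap for 22 of the 35, where the background is 68.6%. The other 13 probes were not detected on all arrays of either group, which the test required. Of the 5 mature neuron markers 4 fell on these arrays, as did 3 of 4 oligodendrocyte and 3 of 3 astrocyte markers. The other oligodendrocyte marker, Mobp, rose, as did 2 of 3 tested immature neuron markers. The summed intensity of the neuron markers was 231165 to 260888 on the control and 4008 to 9289 on the microfluidic arrays, where Syp and Syt1 were not detected, and their part in the histone values was not tested. Among probes detected on all 6 arrays 1 of 11 replication-dependent probes rose and 5 fell, and 3 of 4 variants rose and 0 fell, against 35.8% and 18.3% of all such probes. This choice of probes was made after the values were seen.

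Core histone H4 thus had 4 falls, with 1 rise and 1 probe that did not pass. The Hist1h4j probe 187801 (Hist1h4f in the platform table) read 64317, 64389 and 40961 on the control arrays and 3222, 1694 and 950 on the microfluidic arrays. Every control value lay far above every microfluidic value, 2 of the 3 controls stood at the ceiling, and 2 of the 3 microfluidic spots were detected. It fell by 4.44 ± 0.49 on the log2 scale (SE, n = 3 and 3; limma adjusted p = 0.000277). Probe 187798 of the same name read 61264, 62730 and 64426 and 23533, 21433 and 15704, without overlap, a log2 difference of -1.81 ± 0.42 (limma adjusted p = 0.00789). Hist4h4, the solitary H4 gene outside the clusters, read 64266, 64367 and 64333 on the control arrays, all at the ceiling, and 37818, 18769 and 11227 on the microfluidic arrays. A value that is saturated or undetected on a whole group gives only a bound. Each such "at least" fold holds on the quantile-normalized scale alone, and where the ratio of the mean intensities is smaller, that ratio is printed too. Hist4h4 was at least 4.17-fold lower on the normalized scale, with an intensity ratio of 2.85 (limma adjusted p = 0.00329). Hist1h4j 194259, also at the ceiling on all controls, read 59321, 53260 and 31876 and passed as lower, with an intensity ratio of 1.33 (limma adjusted p = 0.0442). With median centring in place of quantile normalization the last 3 probes no longer passed, at -0.27, -0.30 and, turned in sign, 0.91. Hist2h4 varied widely, with 19659, 21212 and 61091 on the controls and 32729, 2497 and 25081 on the microfluidic arrays, and did not pass (limma adjusted p = 0.391). Hist1h4h 195248 went the other way by 0.94 ± 0.28 (limma adjusted p = 0.0232), with 2292, 1482 and 1854 on the controls, 1 of them detected, and 1694, 1452 and 1423 on the microfluidic arrays, all detected. The intensities overlap, and the normalized values do not. That rise did not pass without control 1 or without control 2 (adjusted p = 0.0662 and 0.0930), nor with the deposited values. Hist1h4j 194259 was lost without each of 5 arrays in turn, all but microfluidic 2.

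Among H3 probes, Hist2h3c1 and Hist2h3c2 went in opposite directions although they carry names of neighbouring copies. Hist2h3c1 read 40161, 54791 and 44272 on the control arrays and 5159 and 5807 on microfluidic arrays 2 and 3, the spot being marked bad on microfluidic 1. The groups did not overlap, and the log2 difference was -2.40 ± 0.38 (limma adjusted p = 0.00197). Hist2h3c2 read 673, 1142 and 465 on the controls, none of them detected, and 3505, 3884 and 2890 on the microfluidic arrays, all detected. It was at least 3.67-fold higher after the mixer reaction (limma adjusted p = 0.000663). Hist1h3b was read by 3 probes of 1 accession. Probe 188294 fell (47048, 37815 and 41777 against 5446, 18226 and 6090; log2 -1.88 ± 0.52; limma adjusted p = 0.0156), a call lost with median centring and without control 3 (adjusted p = 0.246 and 0.0544). Probe 188293, one of the brightest members, read 64418, 64494 and 45539 and 64807, 12117 and 25210, which overlapped. It and 188297 had differences of -1.30 ± 0.77 and -1.35 ± 0.54 and did not pass (adjusted p = 0.179 and 0.0641). Hist1h3f, with 4881, 5086 and 9930 against 862, 549 and 1511, fell by 1.08 ± 0.40 (limma adjusted p = 0.0476), and that call was lost without each of 5 arrays in turn, all but control 1.

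H2A and H2B probes gave fewer calls. Hist2h2aa1, an H2A gene of the smaller cluster, read 12517, 10168 and 11060 on the controls and 816, 417 and 515 on the microfluidic arrays, where no spot was detected. It was at least 3.52-fold lower (limma adjusted p = 0.000305). Hist3h2a read 22203, 22624 and 44659 and 7284, 2367 and 2546, without overlap, a log2 difference of -2.11 ± 0.50 (limma adjusted p = 0.00815). The brightest H2A probe, Hist1h2ao, read 35478, 62214 and 39866 on the controls and 21759, 36975 and 64697 on the microfluidic arrays, which overlapped (log2 difference 0.01 ± 0.56). Hist1h2aa read 6663, 5813 and 4481 and 3077, 1156 and 7235, Hist1h2ab 2139, 1893 and 2514 and 1434, 884 and 1714, and neither passed, nor did Hist1h2ac. In H2B, Hist1h2be 271679 rose, from 4287, 2907 and 2041 to 22883, 2276 and 5820 (log2 1.99 ± 0.51; limma adjusted p = 0.0117). The intensities overlap, while the normalized values do not. The other 3 tested H2B probes, Hist1h2be 188074 and both Hist3h2ba probes, had differences of -1.49 to 0.31 and did not pass.

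Of the H1 probes, Hist1h1e stood at the ceiling on all 6 arrays, between 64252 and 64749, so no difference could be read from it. Hist1h1t read 2471, 2332 and 2007 on the controls and 4416, 2709 and 3890 on the microfluidic arrays, all detected. The groups did not overlap, and it rose by 1.61 ± 0.25 (limma adjusted p = 0.00118). Hist1h1d also rose, with 1435, 1413 and 1969 and 1820, 1258 and 1314, intensities that overlap while all microfluidic spots and only 1 control spot were detected (log2 1.05 ± 0.30; limma adjusted p = 0.0178). That call was lost without control 1 or without control 2 (adjusted p = 0.0792 and 0.0661). Hist1h1a, read at 3045, 2736 and 2497 on the controls and undetected at 391 and 238 on microfluidic arrays 1 and 3, was at least 1.08-fold lower (limma adjusted p = 0.00894).

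Among the variants 3 of the 9 tested fell and 2 rose. The linker histone H1fx read 64279, 54673 and 51902 on the control arrays and 5486, 708 and 1040 on the microfluidic arrays, of which 1 was detected, a log2 difference of -4.26 ± 0.50 (limma adjusted p = 0.000365). The replacement histone H3.3 is encoded by H3f3a and H3f3b. H3f3b probe 311671 read 14089, 7729 and 9937 and 1514, 1367 and 2077, a log2 difference of -1.21 ± 0.29 (limma adjusted p = 0.00841). Its probe 290890 was not detected on any microfluidic array, at 367, 153 and 120 against 3581, 3569 and 4845, and was at least 1.26-fold lower (limma adjusted p = 0.00271). H3f3a gave 11117, 9438 and 14953 on the controls and a wider 1193, 11487 and 2812 on the microfluidic arrays, which overlapped, and did not pass (log2 -0.64 ± 0.72; adjusted p = 0.470).

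Of the 4 tested H2A variant probes 2 rose. H2afz, which encodes the H2A.Z found at promoters, read 4682, 7092 and 3394 on the controls and 6143, 6501 and 5664 on the microfluidic arrays. The intensities overlap, while relative to each array's distribution it rose by 1.28 ± 0.37 (limma adjusted p = 0.0198). That call was lost without control 1, without control 3 or without microfluidic 2 (adjusted p = 0.0756, 0.0713 and 0.0510). H2afy encodes macroH2A, which has a large domain outside the histone fold. Its probe 312485 read 7763, 7067 and 6829 on the controls, and 2 of 3 microfluidic arrays were at the ceiling (64595, 3037 and 64465). The log2 difference of 2.54 ± 0.82 (limma adjusted p = 0.030) was lost without each of 5 arrays in turn, all but microfluidic 2. H2afv, the other H2A.Z gene, read 6684, 7372 and 4854 and a wide 64139, 1843 and 42871, and did not pass (log2 2.11 ± 0.80; adjusted p = 0.0527). H1foo read 25249, 11690 and 22220 against 9195, 3559 and 5937 and H2afy2 63832, 10914 and 48531 against 35486 and 28762, and neither passed. H1f0, H1fnt, H2afj, H2afx and H2afy 237438 were not detected on all arrays of either group and were not tested. Of the 20 calls 8 held under every alternative in which the probe was tested: the falls of Hist1h4j 187801, Hist2h3c1, Hist2h2aa1, Hist3h2a, H1fx and H3f3b 290890, and the rises of Hist2h3c2 and Hist1h1t. The split of 7 higher and 13 lower became 9 and 9 with median centring and 3 and 13 with the deposited values.

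**Figure D3:**
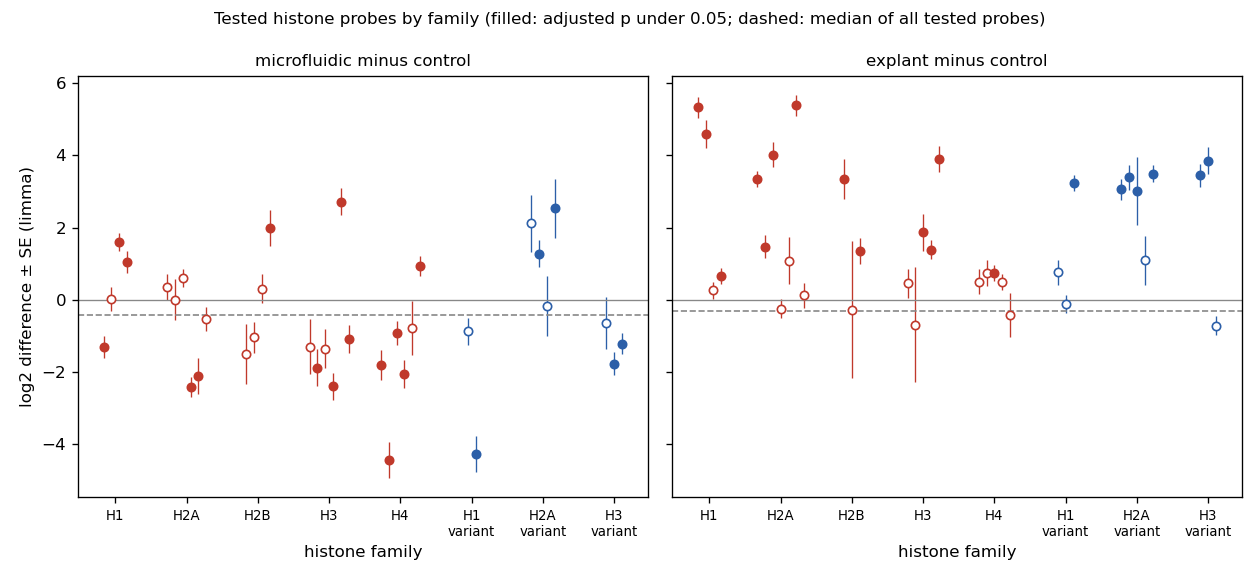
Fitted log2 difference ± SE (vertical axis) of each tested histone probe, by family (horizontal axis; replication-dependent probes left, variants right), for microfluidic minus control and explant minus control. Filled points passed the test and the dashed line is the median of all tested probes (-0.43 and -0.30); points given in the text as bounds are drawn at their fitted value. Every filled explant point lies above 0, while the microfluidic points lie on both sides.

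The same input in a 10 µL tube gave almost no detected signal, for histone probes as for all probes. Detection covered 6.86 ± 4.49% of the replication-dependent, 4.76 ± 4.12% of the variant and 4.44 ± 1.25% of all probes (mean ± SD, n = 3). On the conventional arrays 0 to 2 of the 7 H4 probes were detected, 0 of the 7 H2A probes, and 0 to 1 of the probes of each other replication-dependent family. Hist4h4 read 3665, 627 and 3085, Hist1h4j 187801 391, 612 and 1144, and Hist2h4, detected on both arrays with a usable spot, 5115 and 5564. H2afy 312485 was at the ceiling on conventional 3 (208, 134 and 62790), as it was on 2 microfluidic arrays. Hist1h1e read 1958, 769 and 17126, against 29682 or more on every array of the other groups, and Hist1h2ao 1709, 457 and 2448. Among other bright members Hist1h3b 188293 read 763, 242 and 1423, H2afy2 2061, 636 and 2359, H1foo 3788, 739 and 1450 and H1fx 536 and 497. Of 22 tested replication-dependent probes 0 rose and 9 fell, and of 9 tested variants 0 rose and 2 fell, against 6.39% and 23.8% of all 13792 tested probes (limma). Each of these 31 probes was detected on all control arrays and none on all conventional arrays, so each entered the test through the controls alone. Among all probes, the 210 detected on all arrays of both groups were tested too, and 80.5% of them rose. The absence of rises among histone probes therefore cannot be set against the 6.39%. At an unadjusted p under 0.05, 1 replication-dependent probe, Hist1h1t, was higher, and none of the variants. Hist1h1t was higher on the normalized scale alone. Its intensities were 615, 253 and 274 on the conventional arrays, none detected, against 2471, 2332 and 2007 on the controls. Groups did not overlap for 17 of the 31, with a background of 49.8%. The median difference was -1.90 for the replication-dependent and -0.48 for the variant probes, against -0.80 for all. With the deposited values 4 rose and 14 fell.

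H4 again stood among the lower probes. Hist1h4j 187798, 187801 and 194259 were at least 2.01, 2.03 and 1.98-fold lower than on the controls (limma adjusted p = 0.00379, 0.00526 and 0.0335). The last of these was lost without each control array in turn and without conventional 1. Hist1h3b 188293 was at least 2.48-fold, Hist2h3c1 at least 1.19-fold and H1fx at least 1.96-fold lower (limma adjusted p = 0.00603, 0.00891 and 0.00423). Hist2h3c1 did not pass without control 2 or without control 3 (adjusted p = 0.0613 and 0.0524). Hist3h2a, Hist1h2aa, Hist2h2aa1, Hist3h2ba 190496 and H3f3a also fell (limma adjusted p = 0.00544, 0.00612, 0.00715, 0.0105 and 0.0103). No fold is given for these 5, because their control mean lay below the lowest detected signals of the conventional arrays. Hist1h2aa and Hist3h2ba 190496 did not pass with the deposited values and turned in sign there, to 0.16 and 0.54 (adjusted p = 0.337 and 0.0724). Hist3h2ba 190496 did not pass without control 1 either, and H3f3a not without control 3.

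Set directly against the tube on the normalized scale, the mixer was higher for 1 of 15 tested replication-dependent probes and 0 of 4 variants. None was lower, where 23.0% of all 6942 tested probes rose and 4.49% fell (limma). All 19 histone probes were detected on every mixer array and none on every tube array, so each entered the test through the mixer alone. Among all probes, the 112 detected on all arrays of both groups were tested too, and 69.6% of them fell. The absence of falls among histone probes therefore cannot be set against the 4.49%. The scaling gives all arrays 1 distribution, so the test does not compare total signal. Median intensity was 3218 ± 999 in the mixer and 234 ± 156 in the tube for replication-dependent probes. For variants it was 2220 ± 740 and 204 ± 60.9, and for all probes 1320.5 ± 424 and 198 ± 19.7. At an unadjusted p under 0.05, 5 replication-dependent and 1 variant probe were higher and none was lower. Hist1h1d was the probe that passed, with 1820, 1258 and 1314 in the mixer, all detected, and 21, -110 and -22 in the tube, none detected (adjusted p = 0.0405). Its call was lost under 10 of 14 alternatives and turned to -1.02 with the deposited values. H2afz lay at 6143, 6501 and 5664 in the mixer and 260, 68 and 244 in the tube, without overlap, and just missed the threshold (limma adjusted p = 0.0501). The groups did not overlap for 6 of 19 probes, with a background of 48.8%. Without conventional 3 the count of higher probes was 7, and without microfluidic 1 or microfluidic 3 it was 0. The comparisons with the control share the control arrays, and this one shares its arrays with both.

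Single cells were described without a test, since no animal is named for the 4 cells. The Hist1h4j probes, at or near the ceiling in the explant, were dark in nearly every cell. Hist1h4j 187801 read 965, 1395, 479 and 446 in cells 1 to 4, none detected, and 187798, also undetected, read 647, 189, 23 and 853. Probe 194259 was detected in cell 1 alone (7942, 742, 702 and 291). Hist4h4, by contrast, was detected in all 4 cells at 45347, 12073, 19562 and 7082. The H4 median exceeded 52.6 ± 15.5% of all probes in the cells (SD, n = 4), 82.8 ± 9.86% on the microfluidic arrays, 97.5 ± 0.499% on the control and 99.6 ± 0.0116% on the explant arrays.

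Other replication-dependent probes were steady between cells. Hist2h3c2 read 5310, 4031, 6278 and 5853 and Hist1h1t 3279, 3012, 3021 and 2756, both detected in all 4. Hist1h1e read 64417, 64482, 64548 and 29682, lower in cell 4 alone. Hist1h2ao was bright in every cell, at 31840, 62769, 45393 and 28276. Others differed widely from cell to cell. Hist1h2be 271679 read 59083, 2628, 64284 and 1334, with cells 1 and 3 far above cells 2 and 4. Hist1h3b 188297 read 2515, 4215, 36461 and 21080, highest in cells 3 and 4, while probe 188293 of the same accession was highest in cells 2 and 3 (8864, 18927, 24412 and 12825). Hist2h3c1 read 6353, 5506 and 9913 in cells 2 to 4, and Hist3h2a 5481, 2987, 2354 and 1242. Hist1h1b and Hist1h2aa were detected in cells 1 and 2, at 4864, 2466, 1144 and 763 and 4089, 2987, 1646 and 1542 in cells 1 to 4. Hist1h2ae read 4933 and 16704 in cells 1 and 2, its spots being marked bad in cells 3 and 4. Hist1h1a was measured in all 4 cells and detected in none, at 255, 248, 398 and 474.

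Among variants H2afz differed little between cells, at 9288, 7447, 8068 and 7833, detected in all 4 cells. H3f3a was bright in cell 1 only (47887, 183, -24 and 1015), and H3f3b 290890 was at 83, 949, -60 and 802. H2afx, the variant phosphorylated at DNA breaks, read 2030, 29024, 894 and 7718, high in cells 2 and 4. H2afy 312485 was at the ceiling in cell 4 and at 2256, 1794 and 944 in cells 1 to 3, and H2afy2, which encodes the second macroH2A, was between 10705 and 18207 in all 4. H2afy 237438 read 5409, 4456, 1737 and 4664, H1foo 3282, 10653, 2795 and 2316 and H2afv 988, 944, 1241 and 1275, the last undetected. H1fx read 1193, 927, 788 and 1617 and H1f0, a linker histone of non-dividing cells, 9752 and 6861 in cells 1 and 2, being marked bad in the other two. Cells 1 to 3 were scanned in 1 session and cell 4 in another, and cell 4 had the lowest share of detected probes (25.3%), and the part of these in the differences was not tested.

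**Figure D4:**
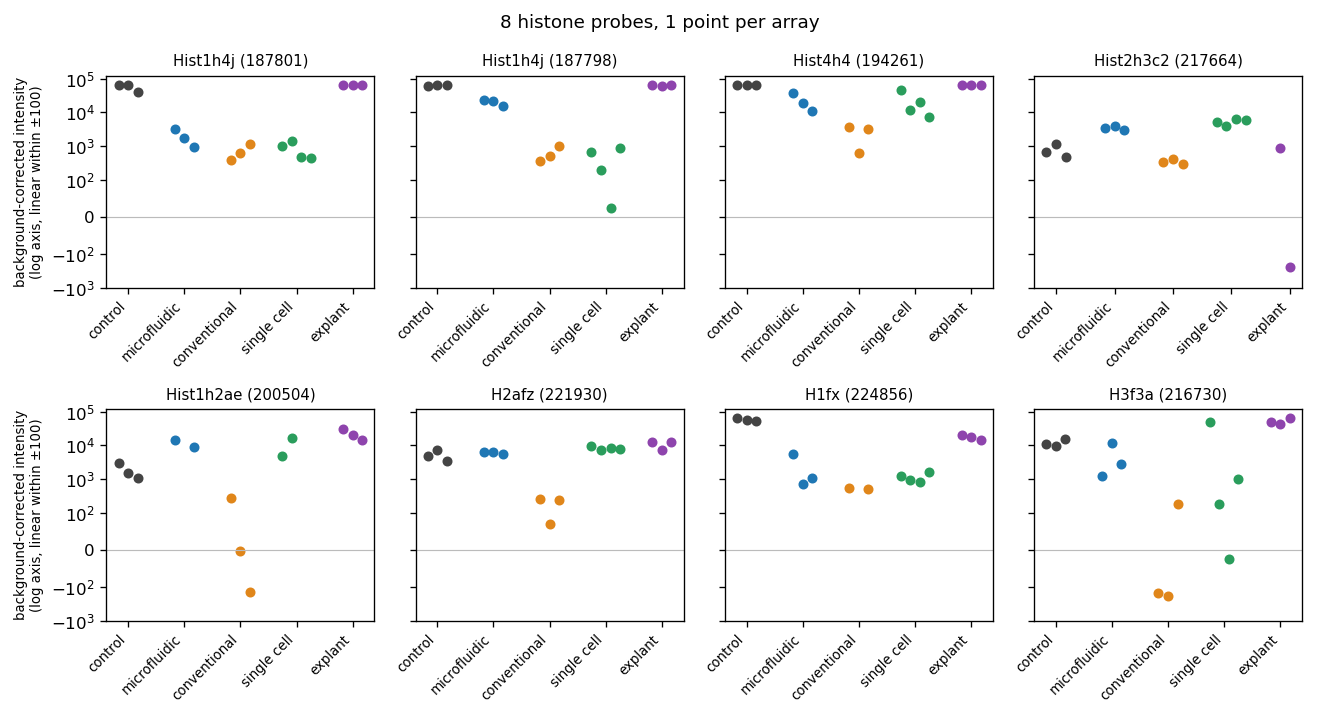
Background-corrected intensity (vertical axis, log scale and linear within ±100) of 8 histone probes in the 5 groups, with 1 point per array and missing points where a spot was marked bad. The 2 Hist1h4j probes are at 40961 or more on all control and explant arrays and at 1395 or less in all single cells, Hist2h3c2 is highest on the microfluidic and single-cell arrays, and H2afz lies between 3394 and 12887 on every array outside the conventional group.

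The embryonic explant was set against the adult control, both primed with random hexamers. Histone probes of both classes rose and none fell. Of 24 tested replication-dependent probes 13 rose, and of 11 variants 7 rose, and the remaining 15 did not pass (limma over 13829 tested probes). The background was 15.2% higher and 26.8% lower. At an unadjusted p under 0.05, 1 probe was lower, H3f3b 311671. The median difference was 0.92 for the replication-dependent and 3.06 for the variant probes, against -0.30 for all tested probes. The groups did not overlap for 24 of the 35 probes, with a background of 57.6%. Among probes detected on all 6 arrays 10 of 16 replication-dependent and 5 of 8 variant probes rose and 0 fell, against 41.0% and 12.8% of all such probes. The test compares quantile-normalized values, so that a probe of equal intensity on both ranks higher on the dimmer explant arrays. For that reason intensities are printed, some of the control values only with the microfluidic comparison above. In whole-tissue RNA a larger share of a cell type and more RNA per cell cannot be told apart.

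Of the tested H1 and H2A probes 3 of 4 and 4 of 7 rose. Hist1h2ae read 2956, 1483 and 1059 in the adult and 30313, 19838 and 13889 in the explant, without overlap, a log2 difference of 5.38 ± 0.29 (limma adjusted p = 3.72e-05). Hist1h1b was not detected on any control array (1732, 860 and 1084) and read 17517, 17507 and 8909 in the explant, at least 30.9-fold higher on the normalized scale, with an intensity ratio of 11.95 (limma adjusted p = 4.36e-05). Hist1h1a rose from 3045, 2736 and 2497 to 36764, 22689 and 7843, by 4.59 ± 0.38 (limma adjusted p = 0.000172). Each of these 3 genes was brighter on every explant array than on any control array. Hist1h2ab, at 13977, 9160 and 5528, rose by 4.02 ± 0.34 and Hist1h2aa, at 15172, 9037 and 10632, by 3.35 ± 0.23 (limma adjusted p = 0.000189 and 8.48e-05). Hist1h2ao stood at the ceiling on all explant arrays (63439, 62678 and 63708) and was at least 2.77-fold higher on the normalized scale, with an intensity ratio of 1.38 (limma adjusted p = 0.00925). Hist2h2aa1, Hist3h2a and Hist1h2ac did not pass, the first with 12517, 10168 and 11060 against 2994, 2400 and 2194 and the second with 22203, 22624 and 44659 against 7995, 47982 and 32194. Hist1h1e, at the ceiling on the controls, read 63505, 52286 and 40597 and did not pass. Hist1h1t passed at 0.67 ± 0.22 (limma adjusted p = 0.0440) although no explant spot was detected and its intensities were lower there (1382, 331 and 1021), and the call was lost without each of 5 arrays in turn, all but explant 3.

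Of the 7 H3 probes 3 to 4 were at the ceiling on each explant array. Of the 7 H2B probes 1 to 2 were at the ceiling there, and 1 to 3 were detected. The H3 probe Hist1h3f, which was not at the ceiling, rose from 4881, 5086 and 9930 to 24150, 22817 and 21541, by 3.90 ± 0.36 (limma adjusted p = 0.000261). Hist2h3c1, at 63280, 62782 and 63761, and Hist1h3b 188297, at 63500, 62930 and 63750, were at least 2.62 and 3.64-fold higher on the normalized scale (limma adjusted p = 0.00584 and 0.0225). Their intensity ratios were 1.36 and 1.59, and the latter did not pass without control 1, control 3 or explant 1. Hist1h2be 188074 read 22724, 5748 and 22901 against 63727, 63364 and 55979, a log2 difference of 3.34 ± 0.56 (limma adjusted p = 0.00309). Hist3h2ba 190496 passed at 1.35 ± 0.36 on the normalized scale alone (limma adjusted p = 0.0196). Its intensities overlap, at 7447, 2761 and 3097 on the control and 4869, 1459 and 2389 on the explant arrays. That call was lost without control 2, control 3 or explant 1. The probe that shares the accession of Hist1h2be 188074, Hist3h2ba 188078, read 63063, -1492 and 63643 in the explant, and Hist1h3b 188294 read 63283, -667 and 63811. Both were dark on explant 2 alone and at the ceiling on explants 1 and 3. With explant 2 they differed from the control by -0.27 ± 1.89 and -0.69 ± 1.60 and did not pass. Without it both passed as higher (limma adjusted p = 0.00127 and 0.0046), with no size to be read, since every remaining explant spot was saturated. No size of change could be read for most H4 probes, since Hist1h4j 194259 and Hist4h4 were saturated on all 6 arrays and Hist1h4j 187801 and 187798 on all explant and on 2 and 1 of the control arrays. Hist1h4j 194259 passed with all 6 spots saturated (limma adjusted p = 0.0272), and 187801 and 187798 did not pass (limma adjusted p = 0.125 and 0.281). Hist2h4 read 19659, 21212 and 61091 against 7887, 7680 and 3900 and did not pass.

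The 7 variant probes that rose did so by 3.01 to 3.85 on the log2 scale. H3f3a read 11117, 9438 and 14953 in the adult and 50427, 41696 and 63808 in the explant, a log2 difference of 3.45 ± 0.31 (limma adjusted p = 0.000243). H2afz read 12887, 7258 and 12657 against 4682, 7092 and 3394, and all explant values lay above all control values, by 3.39 ± 0.35 on the normalized log2 scale (limma adjusted p = 0.000411). H2afv read 18156, 7946 and 8489, H2afy 312485 28377, 15424 and 12169, H2afy 237438 28764, 17312 and 7234 and H1f0 31815, 22187 and 13757 in the explant, with 11589, 8060 and 8932 for H1f0 and 28307, 10126 and 1177 for H2afy 237438 in the adult. These 4 probes rose by 3.06 ± 0.30, 3.49 ± 0.23, 3.01 ± 0.95 and 3.24 ± 0.23 (limma adjusted p = 0.000307, 7.50e-05, 0.0367 and 9.79e-05). On the control arrays H2afv read 6684, 7372 and 4854 and H2afy 312485 7763, 7067 and 6829. The intensities of H2afy 237438 overlap between the groups, and its call was lost without control 2 or 3 and without explant 1 or 2. The 2 H3f3b probes disagreed. Probe 290890, at 12996, 7645 and 20898, rose by 3.85 ± 0.37 (limma adjusted p = 0.000308), while 311671, not detected in the explant, read 1867, 826 and 2022 against 14089, 7729 and 9937 and did not pass (adjusted p = 0.0594). H1foo and H2afy2, at 10751, 7439 and 6104 and 30500, 23788 and 11974, did not pass. H1fx, which fell in the mixer, did not pass here (20546, 17575 and 14177 against 64279, 54673 and 51902; log2 -0.12 ± 0.25; adjusted p = 0.720). Of the 20 calls 11 held under every alternative in which the probe was tested, 7 of them replication-dependent (Hist1h1a, Hist1h1b, Hist1h2aa, Hist1h2ab, Hist1h2ae, Hist1h2be 188074 and Hist1h3f) and 4 variants (H1f0, H2afv, H2afz and H3f3b 290890).

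Of 4 further members chosen for description whatever their change, Hist1h1c and Hist2h2be gave no detected signal. Hist1h1c was not detected on any array, at 1631, 1223 and 1479 on the control, 146, 102 and 15 on the microfluidic, 430, 1106, 769 and 223 in the cells and 153, -1319 and 1204 on the explant arrays. Hist2h2be, marked bad on all controls, was not detected elsewhere. H2afx read 860, 592 and 1789 on the control, 1145, 1051 and 1368 on the microfluidic and 4861, -599 and -257 on the explant arrays and was not tested. Its values in the cells are given above, where cells 2 and 4 read highest. Hist1h2bc read 15903, 6949 and 8570 on the controls, 5188 on the 1 microfluidic array where its spot was usable, 3204, 2664, 1319 and 2917 in the cells, where 3 of 4 detected it, and 2966, -97 and 1989 on the explant arrays, where none did. It was in no test, since no group detected it on all arrays.

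Other changes moved with the explant result. Of 15 tested genes of S phase and proliferation 13 rose and 0 fell on the normalized scale, with a median log2 difference of 1.98. In intensity the genes of this list went both ways. Their summed intensity was 81967 to 106870 on the control and 74266 to 112635 on the explant arrays. Mcm2 was dimmer in the explant, at 5025, 3826 and 3969 against 17435, 10790 and 16016. The replication helicase genes Mcm7 and Mcm4 were at least 16.4 and 10.2-fold higher and the ribonucleotide reductase gene Rrm2 at least 11.2-fold higher on the normalized scale (limma adjusted p = 4.05e-05, 0.000130 and 0.000258). Their intensity ratios were 4.32, 5.59 and 6.41. All 5 mature neuron markers and all 4 oligodendrocyte markers fell. Their summed intensities were 231165 to 260888 and 162391 to 169976 on the control arrays and 7053 to 17431 and 0 to 1725 on the explant arrays, where no oligodendrocyte marker was detected. The 3 tested immature neuron markers rose. The part of these shifts in the histone values was not tested. All 6 ganglionic eminence markers were detected on every explant array, 5 of the 6 on every control array, and 2 to 4 in the single cells. Against the control 4 of these 6 rose in the explant and 1 fell.

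Since control and explant arrays share random priming without amplification, and microfluidic and single-cell arrays share the mixer, the run of T and the PCR, the 6 and 7 arrays were also set side by side. This was done after the values were seen and carries no test, since tissue, input and scanning differ as well. On the normalized scale 9 of 34 replication-dependent probes read lower on every mixer array with a usable spot than on every random-primed array with one, against 12.4% of all 24109 probes. They were Hist1h4j 187798, 187801 and 194259, Hist4h4, Hist2h3c1, Hist1h3f, Hist2h2aa1, Hist3h2a and Hist1h1a, so that 4 of the 7 H4 probes were among them. On the same scale Hist2h3c2, Hist1h1t, Hist1h1d and Hist1h2be 271679 read higher on every mixer array with a usable spot, against 14.4% of all probes. Spots marked bad left 5 mixer values for Hist2h3c1 and 6 each for Hist1h1a and Hist1h1d, and 5 random-primed values for Hist2h3c2 and Hist1h2be 271679. Among the 14 variants H1fx read lower and none read higher. The range of Hist1h4j 187801 was 14.45 to 15.98 on the random-primed and 9.75 to 11.29 on the mixer arrays.

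Genes that transcribe histone genes, process their mRNAs or carry histones to DNA were examined beside them, from lists chosen with earlier results of these data known. Of 17 tested genes of histone transcription and 3' processing 4 rose and 6 fell on the microfluidic arrays, and on the explant arrays 5 of 16 rose and 0 fell. The smallest adjusted p values on the microfluidic arrays were those of the zinc finger gene Zfp473, whose product acts in 3' processing and which was at least 2.45-fold lower, the CCAAT-binding subunit gene Nfyc, at least 5.42-fold higher, and the octamer factor gene Pou2f1, with a log2 difference of -2.16 ± 0.31 (limma adjusted p = 0.000698, 0.000777 and 0.000886). On the normalized scale Nfyc also rose in the explant, by 1.76 ± 0.27, and the cap-binding gene Ncbp1 was at least 24.4-fold higher there (limma adjusted p = 0.00215 and 0.000515). The rise of Nfyc held on that scale alone. The intensities of Nfyc overlap, at 18916, 16133 and 10798 on the control and 14737, 8774 and 10532 on the explant arrays. The intensity ratio was 4.21 for Nfyc on the microfluidic arrays and 9.44 for Ncbp1 in the explant. Slbp, for the protein that binds the stem-loop, has 2 probes, of which only the brighter over all 16 arrays was used. That probe did not pass in any comparison in which it was tested. It read 2616, 2577 and 2323 on the control and 1266, -187 and 1254 on the explant arrays, and 141, 641, 196 and 64467 in the 4 cells, with only cell 4 bright. It was named after its values were seen.

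Of 16 tested genes of histone chaperones and deposition 6 rose and 2 fell on the microfluidic arrays, and 8 of 16 rose and 0 fell in the explant. The chaperone gene Nap1l4 was at least 11.8-fold higher and Daxx, of H3.3 deposition, at least 6.84-fold higher on the microfluidic arrays, while Cabin1 was at least 3.84-fold lower (limma adjusted p = 9.06e-05, 0.000235 and 0.000201). The intensity ratios of Nap1l4 and Daxx were 8.36 and 5.11. In the S phase list 5 of 13 tested genes rose and 2 fell on the microfluidic arrays. Set against the 23.9% and 35.1% of all probes, and 15.2% and 26.8% for the explant, the microfluidic counts of the processing list lie near the background and the explant counts of all 3 lists lie above it for rises. These counts hold on the normalized scale. Among probes detected on all control and explant arrays 41.0% rose in the explant, and the lists were not set against that share. The summed intensity of the chaperone list was 150489 to 192146 on the control and 72469 to 118458 on the explant arrays. For the processing list it was 124408 to 177162 and 47826 to 132840.

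The promoters of the members were read from RefSeq (GRCm38.p6, 250 bases before to 50 after the start). Promoters were found for 24 replication-dependent and 8 variant genes. The letters CCAAT or their complement ATTGG occurred in 20 of 24 and 5 of 8 of them, against 37.4% of 32851 promoters of the same length. The letters TATAAA or TTTATA occurred in 15 of 24 and 1 of 8, against 13.6%. By family CCAAT was present in all 6 H1, 7 H2A, 4 H2B and 3 H3 promoters and in 0 of 4 H4 promoters. TATAAA was present in 4 H1, 6 H2A, 3 H2B, 0 H3 and 2 H4 promoters. Promoters are shown for 1 gene of each class that rose in the explant, H1f5 (the current symbol of Hist1h1b), with both motifs, and H2az1 (that of H2afz), with CCAAT alone. Capitals mark every match on either strand, and each sequence runs in the direction of its gene, H1f5 at chr13:21780576-21780875 on the minus strand and H2az1 at chr3:137864237-137864536 on the plus strand.
H1f5 promoter: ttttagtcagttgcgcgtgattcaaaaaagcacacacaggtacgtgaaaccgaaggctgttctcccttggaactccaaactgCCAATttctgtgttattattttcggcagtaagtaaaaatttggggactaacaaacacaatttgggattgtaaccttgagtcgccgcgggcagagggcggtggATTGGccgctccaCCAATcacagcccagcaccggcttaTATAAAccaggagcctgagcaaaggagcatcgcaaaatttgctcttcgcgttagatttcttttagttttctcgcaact
H2az1 promoter: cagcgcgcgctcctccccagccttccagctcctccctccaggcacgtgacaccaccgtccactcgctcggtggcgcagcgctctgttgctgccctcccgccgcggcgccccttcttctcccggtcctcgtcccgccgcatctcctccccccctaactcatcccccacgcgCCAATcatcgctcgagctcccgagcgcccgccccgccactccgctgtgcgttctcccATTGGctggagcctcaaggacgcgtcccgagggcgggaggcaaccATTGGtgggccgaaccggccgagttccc
A match says only that these letters occur in the window, and it was not related to the intensities.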

How the data were processed

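Spots were scanned with Mapix (versions 2.2.4 to 2.5.1, per the file headers of 13 arrays), and the deposited files hold the authors' Cy5 foreground and local background median intensities of 25344 spots an array, not yet normalized. The series table holds the authors' processed signal, which tracked foreground over background (Spearman rho 0.977 to 0.997 per array) and whose scaling is not given in the sources used here. The authors' bad flag (-100) removed a spot unless it was saturated. Background correction used normexp (offset 50), and values were log2-transformed and quantile-normalized over the 16 arrays, and spots of 1 oligo were averaged (limma 3.58.1, R 4.3.3). The median intensity printed for a probe is foreground minus background. Detection used 2 background standard deviations. Conventional 1 has no such column, and its deviations were filled with the spotwise mean of conventional 2 and 3. A test required that every array of either group detected the probe. Each comparison was fitted on its 2 groups alone with lmFit and eBayes, with Benjamini-Hochberg adjustment over all tested probes. Where every spot of the dimmer group was undetected, or every spot of the brighter group saturated, "at least N-fold" sets the brighter mean against the dimmer mean of normalized log2 values, each dim value raised to the lowest detected signal of its array, and another scaling can give a smaller fold. The fits were tested on simulated data with known shifts. The number of arrays limits the precision.

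Members, lists and tests were chosen with earlier results of these data known. Any member could be named. Values by array are given for the 5 with the highest mean signal in each class, up to 5 per class, direction and test with the smallest adjusted p, and a fixed set of anchor genes, and up to 3 genes of each other list. One item of a marker list is not reported here. Figures were drawn with matplotlib 3.10.9.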

Additional observations from a re-analysis of the deposited data

Results flagged for a closer look

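In the group of 4 single cells the values of each histone probe, and the median of each class, were tested for 1 cell standing apart from the other 3. Of 41 sets of 4 values 8 did so. The threshold used flags about 1 in 20 sets of independent, normally distributed values. These intensities reach a ceiling and all sets come from the same 4 cells, so the count cannot be read as an excess. No reason was tested. Cell 4 stood apart for 4 probes. Hist1h1e was at 29682 there against 64417 or more in the others (gap over range 0.996), which all stood at the ceiling that sets their spread. H2afy 312485 was at 64009 there, against 2256 or less (0.979). Hist1h4h 195248 was at 1278, against 3971 or more (0.930). Hist1h3b 188294 was at 7219, against 2034 or less (0.861). Cell 1 stood apart for 3 probes. H3f3a was at 47887 there, against 1015 or less (0.978). Hist1h2be 188074 was at 18704, against 1373 or less (0.970). Hist1h4j 194259 was at 7942, against 742 or less (0.941). Cell 2 stood apart for H1foo, at 10653 against 3282 or less (0.884).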

How the results depend on the processing

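Histone probes that passed numbered 20 in the microfluidic and 11 in the conventional comparison with the control, 1 between these 2 methods, and 20 in the explant comparison. With 1 spread estimated over all 5 groups they were 10, 13, 6 and 12. Among probes detected on all arrays, a setting chosen after the data were seen, 9 of 15 passed for the first and 15 of 24 for the last, and 0 histone probes were left for the other 2. For conventional against control 7 passed among members with 1 name (also chosen afterwards) and 18 with the deposited values. For microfluidic against conventional 8 passed with median centring, 7 with the deposited values (5 higher, 2 lower), 4 with no filter on dim probes and 2 with detection by blank spots. Leaving out 1 array at a time gave 15 to 22, 9 to 14, 0 to 7 and 16 to 21. With the replicate number as a block the counts were 16, 12, 1 and 18, but the numbers do not pair the arrays, since the labels give no shared material and the deviations of same-numbered arrays correlated at -0.321 to 0.134. Among members detected on at least 1 array the class difference was 1.00 on the microfluidic and 0.66 on the explant arrays. By array this choice gave 0.59, -0.24 and 0.85 on the control, against -0.34, -0.39 and 0.55 with all members. It gave 0.66, 0.33 and 0.46 on the conventional arrays and 0.84, 0.57, 0.86 and -0.78 in the cells. With all members and leaving out 1 array at a time, the class difference was -0.37 to 0.11 on the control, 0.46 to 0.72 on the microfluidic, -0.48 to 0.42 on the conventional, 0.02 to 0.51 on the single-cell and -0.18 to 0.02 on the explant arrays.

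Among differences that passed as reported or under the alternative, 9 turned in sign. Hist1h4j 194259 went to 0.91 with median centring for microfluidic against control. With the deposited values Hist1h1a, Hist3h2ba 190496, Hist1h2aa and Hist1h2ac went to 0.76, 0.54, 0.16 and 0.98 for conventional against control, and Hist1h1d and Hist1h4h 195248 to -1.02 and -1.10 for microfluidic against conventional. Without explant 2, Hist1h3b 188294 and Hist3h2ba 188078 went to 1.5 and 2.31 in the explant, and leaving out each array in turn they ranged from -1.81 to 1.5 and from -1.59 to 2.31. Without explant 2 every explant spot left for both was saturated, so 1.5 and 2.31 are not sizes of change. The cause was not tested. Scaling moved the median of all probes from -0.78 to -0.16, from -0.80 to -0.03, from 0.29 to 1.64 and from -0.44 to -0.18 in the 4 comparisons. Saturated spots limit what can be read for H4, H3 and Hist1h1e, and low signal on the conventional arrays leaves most of their differences as bounds.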
